A study of Mus musculus with 12 samples.

Results

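The immediate early response genes followed here are Fos, Fosb, Jun, Junb, Egr1, Egr2, Egr3, Nr4a1, Dusp1 and Myc, 10 genes chosen by name as targets of ERK and serum response signaling out of the 56941 in the count table. All 10 passed the filter on low counts, which 15148 genes passed in all. They were read in 12 RNAseq libraries of B cells sorted from the mouse peritoneal cavity (PerC), 3 for each genotype (control or KI) of B2 and of memory B cells (MemB). B2 cells were IgD+IgM+ and MemB were IgD-IgM-. KI mice were Cd21Cre R26LSL-Gpr34Q340X-IRES-GFP, in which a truncated gain-of-function GPR34 and GFP are made from the Rosa26 locus after Cre has removed a stop cassette, and the allele was built on a C56BL/6N background (the spelling of the methods). Which of these alleles the control mice carried is not given in the labels. Mice of the study were analysed at 8 to 20 weeks of age, and the labels name no treatment for any group. Cd21-Cre acts in mature B cells and also in follicular dendritic cells. The sorted cells of each type are a bulk sample, in which fewer cells with a transcript and less transcript per cell cannot be told apart.

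Library totals were between 29895031 and 39732039 expected counts, 29.3% to 38.3% of them from ribosomal RNA genes, and the common biological coefficient of variation was 91.4%. Gpr34, the gene altered in KI mice, had 3.42 to 6.87 CPM (read counts on a common library-size scale, after TMM normalization) in control B2, 100 to 113 in KI B2, 18.8 to 30.8 in control MemB and 132 to 168 in KI MemB, so each library matched its genotype label. Of the defining markers of B cells, Cd79a had 403 to 659, Ms4a1 622 to 932 and Pax5 310 to 709 CPM over the 12 libraries. Replicate 3 of every group differed in sex from replicates 1 and 2, as read from Xist and the Y-linked genes, and also had the lowest Hspa1a, a stress-induced chaperone gene, at 0.536 to 1.35 CPM against 6.85 to 110 in the other 8 libraries. Mast cell markers summed to 45 and 241 CPM in control MemB replicates 1 and 3 and to 74.9 in KI B2 replicate 3, and to between 0.782 and 1.77 in the other 9 libraries, and their part in the members' values was not tested.

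Immediate early genes are transcribed within minutes of a signal, without new protein synthesis, and their mRNAs are short-lived. In B cells, signals from the antigen receptor and from other surface receptors reach them through the kinase ERK, which acts on serum response factor and its partners, and through calcium and cyclic AMP, which act on CREB. Fos and Fosb pair with Jun and Junb to form the AP-1 transcription factors, Egr1, Egr2 and Egr3 are zinc finger transcription factors, Nr4a1 is an orphan nuclear receptor widely used as a reporter of antigen receptor signaling, Dusp1 is a phosphatase that turns MAP kinases off, and Myc drives growth and division. Serum response factor binds the CArG box, CREB binds the cyclic AMP response element (CRE), and AP-1 and EGR proteins each have a short site of their own.

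Promoter sequences were taken from RefSeq on GRCm38.p6, which held 7 of the 10 genes (Fos, Fosb, Jun, Junb, Egr2, Nr4a1 and Dusp1); Egr1, Egr3 and Myc had no entry. The 250 bases before the start site are shown for the 4 AP-1 genes, because Fos and Fosb varied together across libraries and so did Jun and Junb, and for Dusp1, which alone among the members held a full CRE. Fos lies at chr12:85473640-85473889 on the plus strand, Fosb at chr7:19310046-19310295 on the minus strand, Jun at chr4:95052223-95052472 on the minus strand, Junb at chr8:84978749-84978998 on the minus strand and Dusp1 at chr17:26508473-26508722 on the minus strand. Capitals mark matches to any of 6 motifs on either strand, and each sequence reads 5′ to 3′ toward the start site.
Fos: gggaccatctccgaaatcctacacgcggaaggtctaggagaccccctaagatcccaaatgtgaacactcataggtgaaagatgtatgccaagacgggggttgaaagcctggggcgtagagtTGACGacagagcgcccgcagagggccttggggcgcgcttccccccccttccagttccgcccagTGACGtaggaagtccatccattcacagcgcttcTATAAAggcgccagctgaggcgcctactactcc
Fosb: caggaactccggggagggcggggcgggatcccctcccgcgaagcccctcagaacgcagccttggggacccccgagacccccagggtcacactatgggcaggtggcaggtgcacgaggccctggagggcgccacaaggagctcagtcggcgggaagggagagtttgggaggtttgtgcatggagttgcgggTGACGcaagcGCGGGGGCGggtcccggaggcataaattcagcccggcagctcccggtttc
Jun: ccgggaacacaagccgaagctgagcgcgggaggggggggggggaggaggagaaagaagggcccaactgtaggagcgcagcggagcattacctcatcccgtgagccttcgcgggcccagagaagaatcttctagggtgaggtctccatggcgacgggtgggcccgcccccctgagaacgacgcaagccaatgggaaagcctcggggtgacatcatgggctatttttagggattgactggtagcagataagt
Junb: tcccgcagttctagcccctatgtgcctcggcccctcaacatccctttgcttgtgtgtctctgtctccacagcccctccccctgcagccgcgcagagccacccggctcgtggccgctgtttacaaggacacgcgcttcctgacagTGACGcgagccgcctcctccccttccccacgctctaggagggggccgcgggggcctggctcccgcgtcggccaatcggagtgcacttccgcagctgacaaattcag
Dusp1: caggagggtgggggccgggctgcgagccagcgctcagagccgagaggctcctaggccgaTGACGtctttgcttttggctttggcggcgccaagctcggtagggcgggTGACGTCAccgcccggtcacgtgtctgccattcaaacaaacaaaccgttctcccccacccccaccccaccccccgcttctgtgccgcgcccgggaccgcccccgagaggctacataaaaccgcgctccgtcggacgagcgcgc

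The motifs searched were the CRE (TGACGTCA), its half-site (TGACG), which every CRE also contains, the AP-1 site (TGANTCA), the EGR site (GCGNGGGCG), the TATA box (TATAAA) and the CArG box. The CRE half-site was in 6 of the 7 members with an entry, all but Jun, and in 17.8% of the 32851 promoter windows of the same length in the table. Egr2 was counted if any of its 5 windows held the half-site, which 3 overlapping ones did, so the member count and the share of windows are not alike. The full CRE was in Dusp1 alone of the 7, against 1.55% of all windows. In Fos the half-site lay 66 to 62 and 129 to 125 bases before the start, upstream of a TATA box at 33 to 28, and a TATA box was in 12.4% of all windows. In Fosb the half-site lay 60 to 56 bases before the start and an EGR site 50 to 42, and Nr4a1 was the other member with an EGR site, against 4.7% of all windows. A CArG box was in 4 of the 5 Egr2 windows, which belong to different start sites of that gene, but 3 of these windows overlap and hold the same copy, so that there were 2 distinct copies. It was in 1.47% of all windows, which can overlap in the same way. The AP-1 site was in 0 of the 7 members and in 6.75% of all windows. These matches describe letters in 250 bases and were not related to the counts.

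On GRCm39, by GENCODE, the 10 are protein-coding genes. Fos spans chromosome 12 from 85520658 to 85524047, Fosb chromosome 7 from 19036621 to 19043976, Jun chromosome 4 from 94937271 to 94940459 and Junb chromosome 8 from 85701113 to 85705359. Egr3 spans chromosome 14 from 70314350 to 70320063 and Myc chromosome 15 from 61857227 to 61862223. Fos, Fosb, Egr1 and Egr3 overlap no other annotated gene, whereas Jun overlaps the antisense gene Junos and Dusp1 shares its span with 6 genes, and whether reads were counted by strand is not stated, so reads of such neighbours may not be separated.

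Per kilobase of the canonical transcript, Myc was the most abundant of the 10 genes, with a mean level over the 12 libraries of 58.6 ± 12.4 CPM per kb (SD, n = 12). Its lowest library, at 36.2 CPM per kb, was above the highest library of every other member, of which Fos reached 27.3. Next came Fos at 12.2 ± 8.43, Jun at 10.4 ± 6.53, Junb at 9.43 ± 6.44 and Egr1 at 7.80 ± 4.94 CPM per kb (SD, n = 12 each), neighbours whose ranges overlapped widely. Dusp1 had 5.25 ± 3.01 and Egr3 4.59 ± 4.67, again within each other's spread, and Nr4a1 had 1.92 ± 1.61 (CPM per kb, SD, n = 12 each). Fosb at 0.94 ± 1.00 and Egr2 at 0.76 ± 0.76 CPM per kb (SD, n = 12 each) were the least abundant and did not differ beyond their spread.

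The more abundant members were mostly the steadier ones. Every member had a biological coefficient of variation of 0.932 to 1.1 times that of the trend over all genes at its abundance. The fit draws each gene's estimate toward that trend, so values near it are partly built in. For Myc it was 30.6% against 32.9%, and Myc was more abundant than 93.9% of all genes tested. The highest library of Myc had 2.13 times the CPM of the lowest, and its within-group SD on the log2 CPM scale, 0.33, was larger than that of 6.75% of all genes tested. For Fos, Jun, Junb and Egr1 the highest library exceeded the lowest by 7.33, 9.13, 9.57 and 8.09 times. Dusp1 spanned 21.3 times, Nr4a1 41.6, Fosb 76.5, Egr3 89.8 and Egr2 207 times.

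Fosb and Egr2, the least abundant members, had high and near-zero counts among replicates of the same group. Their biological coefficients of variation, drawn toward the trend by the fit, were 123% and 132% beside 116% and 127% for the trend at their abundance. Their within-group SDs of log2 CPM, 2.47 and 2.42, were larger than those of 94.9% and 94.1% of all genes tested, whatever their abundance. Egr2 had 197, 4 and 7 expected counts in control B2, 1, 116 and 7 in KI B2, 138, 3 and 144 in control MemB and 30, 99 and 141 in KI MemB (replicates 1, 2 and 3). In 5 of the 12 libraries Egr2 thus had fewer than 10 counts and in the other 7 it had 30 or more, and both kinds occurred in every group but KI MemB. Fosb had 139, 100 and 37 expected counts in control B2, 231, 284 and 14 in KI B2, 395, 5 and 6 in control MemB and 6, 220 and 8 in KI MemB. It was under 10 counts in 4 libraries, all MemB, while replicate 1 of control MemB and replicate 2 of KI MemB were among the highest of all.

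**Figure D1:**
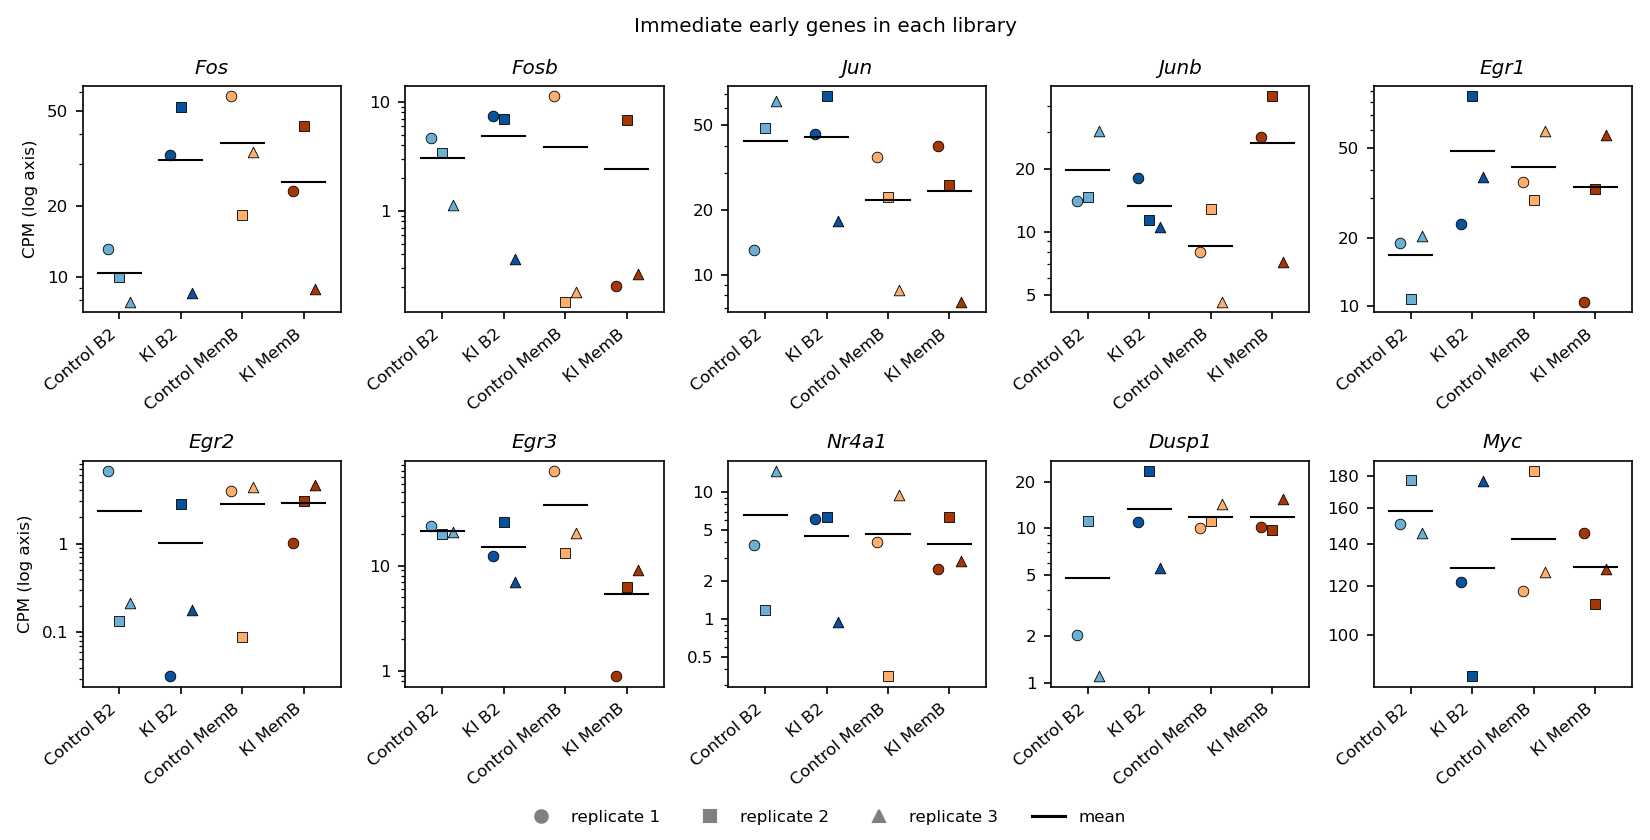
Level of each of the 10 genes in CPM (y axis, log scale, a different range in each panel) in the 4 groups (x axis), with 1 point for each library, its shape giving the replicate number, and a line at the group mean. Myc lies between 86.0 and 183 CPM throughout, Egr2 between 0.032 and 6.62, and only Egr3 in MemB and Egr1 in B2 have KI libraries all on 1 side of the control libraries.

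Between KI and control MemB, 0 of the 10 genes were called by edgeR's quasi-likelihood test, for which the adjusted p had to be under 0.05 and the size of the log2 fold change over 1, where 43 of all 15148 genes (0.284%) were. DESeq2's Wald test called 1 member, Egr3, and 3.16% of all genes. Before adjustment, edgeR's p was under 0.05 for 2 members, Egr3 and Junb, and for 11.1% of all genes. The median log2 fold change was -0.19 over the members and -0.03 over all genes, and 7 of the 10 had a lower mean in KI.

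Egr3, the member nearest to a call, had 79.6, 13.2 and 20.4 CPM in the control MemB libraries and 0.886, 6.28 and 9.09 CPM in the KI MemB libraries. Every KI library lay below every control library, as for 12.1% of all genes in 1 direction or the other, and the nearest libraries of the genotypes had 13.2 and 9.09 CPM. Its log2 fold change was -2.80 (SE 0.83, 95% interval -4.49 to -1.11), a 6.96-fold lower level in KI, with an unadjusted p of 0.00196 and an adjusted p of 0.221 by edgeR. By DESeq2 its adjusted p was 0.0137. Control MemB replicate 1 carried much of that size, and without it the log2 fold change was -1.64 (adjusted p = 0.551 by edgeR). With each library left out in turn, it ranged from -3.39 to -1.64 and its adjusted p from 0.18 to 0.551 in edgeR's test.

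T and NK cell markers moved in the same direction as Egr3 in MemB. The 8 of 10 such markers with enough counts to be tested all had a lower mean in KI, and the 10 together summed to 79.2 to 133 CPM in control MemB and 8.42 to 49.0 in KI MemB. Summed macrophage and monocyte markers were also lower, at 12.4 to 56.1 CPM in control MemB and 0.98 to 9.22 in KI MemB. Of these 11 markers 3 had enough counts to be tested, and Cd14, Fcgr1, Mertk, C1qa and C1qc had no counts in any library. Ccr2 was the largest part of the control MemB sums, at 10.4, 32.3 and 9.17 CPM, and had 0.375, 0.46 and 8.05 CPM in KI MemB. None of the 8 tested T and NK markers, Cd3e, Cd3d and Trac among them, was at 0 in any library, and their part in the Egr3 difference was not tested. In B2, where T and NK markers summed to 20.7 to 44.2 CPM in control and 17.9 to 50.8 in KI, Egr3 had 19.8 to 23.9 CPM in control libraries and 12.5, 26 and 6.94 CPM in KI libraries.

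Junb had 8.04, 12.9 and 4.65 CPM in control MemB and 28.3, 44.5 and 7.20 CPM in KI MemB. Replicates 1 and 2 of KI were above every control library, and replicate 3 fell among them. Its log2 fold change was 1.64 (SE 0.77, 95% interval 0.08 to 3.20), with an unadjusted p of 0.0398 and an adjusted p of 0.425 by edgeR, and it was 1.05 (adjusted p = 0.698 by edgeR) without KI MemB replicate 2. Jun, its close relative, had 35.5, 23.1 and 8.51 CPM in control and 40.2, 26.3 and 7.49 CPM in KI, nearly the same 3 levels in both genotypes.

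For the other members, KI and control MemB libraries overlapped. Fos had 57.8, 18.2 and 33.8 CPM in control and 23.1, 43.2 and 8.89 CPM in KI, with a log2 fold change of -0.55 (95% interval -1.91 to 0.82) that was -1.19 without KI MemB replicate 2 and -0.05 without control MemB replicate 1. Fosb had a log2 fold change of -0.68, but that value rests on single libraries and became 3.85 without control MemB replicate 1. Egr1, at 35.3, 29.6 and 59.7 CPM in control and 10.5, 32.9 and 57.3 CPM in KI, had -0.31 (95% interval -1.50 to 0.89) and changed sign when control replicate 3 or KI replicate 1 was left out. Dusp1 lay between 9.68 and 15.5 CPM in all 6 MemB libraries. Myc had 118, 183 and 126 CPM in control and 145, 112 and 128 CPM in KI, and its log2 fold change of -0.15 had the narrowest interval of the 10, from -0.74 to 0.44.

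**Figure D2:**
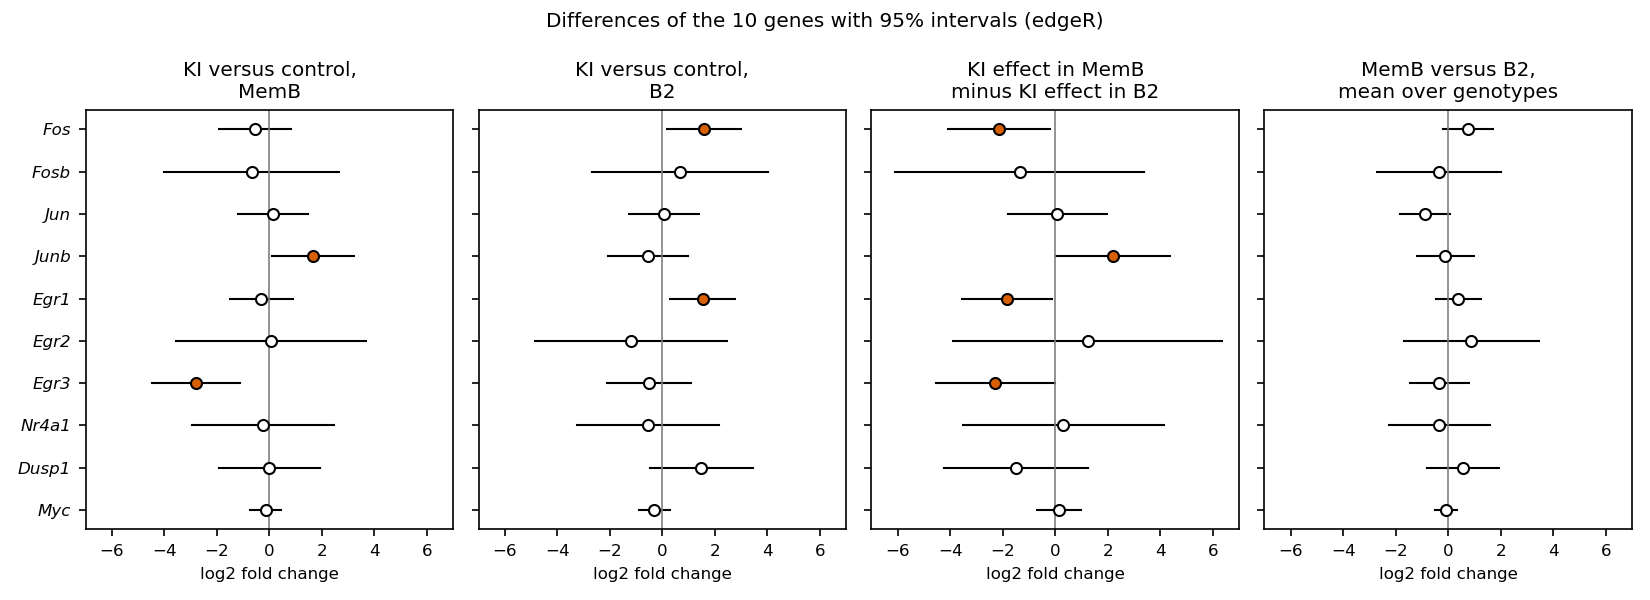
Log2 fold change (x axis) of each of the 10 genes (y axis) in the 4 comparisons, with the 95% interval from edgeR's quasi-likelihood fit as a line and filled points where the unadjusted p was below 0.05. The filled points are Junb and Egr3 in MemB, Fos and Egr1 in B2, and Fos, Junb, Egr1 and Egr3 for the difference between the cell types, and 0 of the 10 genes passed adjustment over all genes in any of the 4.

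Between KI and control B2, edgeR's test likewise called 0 of the 10 members, and 1 of all genes (0.0066%). DESeq2 called 0 members and 0.277% of all genes. Before adjustment, edgeR's p was under 0.05 for 2 members, Fos and Egr1, and for 5.74% of all genes. The members' median log2 fold change was -0.12, beside -0.03 over all genes, with 5 higher and 5 lower in KI.

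Fos had 13.2, 9.99 and 7.88 CPM in control B2 and 32.6, 51.9 and 8.58 CPM in KI B2. Replicates 1 and 2 of KI were above all of the control libraries, while KI replicate 3 was within their range. The log2 fold change was 1.58 (SE 0.68, 95% interval 0.19 to 2.98), with an unadjusted p of 0.0272 and an adjusted p of 0.838 by edgeR, and it was 0.99 without KI B2 replicate 2. Egr1 had 19.0, 10.8 and 20.6 CPM in control B2 and 23.1, 84.9 and 37.3 CPM in KI B2, so every KI library lay above every control library, as for 10.2% of all genes in 1 direction or the other. Its log2 fold change was 1.53 (SE 0.60, 95% interval 0.31 to 2.75, unadjusted p of 0.0157 and adjusted p = 0.838 by edgeR), and it was 0.85 without KI B2 replicate 2.

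Dusp1, with 2.05, 11.2 and 1.10 CPM in control B2 and 11, 23.5 and 5.57 CPM in KI B2, had a log2 fold change of 1.48 (95% interval -0.48 to 3.45), which was 0.79 without KI B2 replicate 2 and 3.08 without control B2 replicate 2. Jun had 13.1, 48.7 and 65.0 CPM in control B2 and 45.7, 68.4 and 17.8 CPM in KI B2, with no order between the genotypes. The value of Egr2 in B2 turned on 1 library, being -1.19 with all libraries and 2.54 without control replicate 1. Myc had 150, 177 and 146 CPM in control B2 and 121, 86.0 and 177 CPM in KI B2, a log2 fold change of -0.30 (95% interval -0.89 to 0.29) that was -0.60 without KI B2 replicate 3 and -0.08 without KI B2 replicate 2.

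Whether the KI effect was the same in both cell types was tested directly, since a low p in one and not in the other does not show that they differ. For this interaction, edgeR's p before adjustment was under 0.05 for 4 of the 10 members, beside 8.49% of all genes. With each library left out in turn that count ranged from 0 (without KI B2 replicate 2 or KI MemB replicate 1) to 4. EdgeR called 0 of the 10 members and 0.066% of all genes, and DESeq2 called 0 members and 1.38% of all genes. The difference of the log2 fold changes, MemB minus B2, was -2.13 for Fos (SE 0.96), -1.84 for Egr1 (SE 0.84), -2.29 for Egr3 (SE 1.11) and 2.20 for Junb (SE 1.07), with adjusted p-values of 0.538 to 0.583 by edgeR. Of these 4 genes, Fos and Egr1 had a higher KI mean in B2 and a lower one in MemB, Junb the reverse, and Egr3 a lower KI mean in both. All 4 kept their direction with any single library left out, over -2.78 to -1.54 for Fos, -2.47 to -1.15 for Egr1, -2.88 to -1.14 for Egr3 and 1.61 to 2.65 for Junb. These 4 were picked by their p in the same libraries, so a kept direction is not independent support. Median absolute differences were 1.43 over the members and 0.87 over all genes, a comparison that does not allow for the members' own levels and spread.

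With MemB set against B2 and the genotypes given equal weight, edgeR's test called 0 of the 10 members and 1.01% of all genes, and DESeq2 called 0 members and 3.85% of all genes. None of the 10 had an unadjusted p below 0.05 by edgeR, while 12.9% of all genes did, and in 0 of the 10 were the 6 libraries of a cell type all above those of the other, as they were for 1.26% of all genes. Jun came nearest, with 13.1 to 68.4 CPM in the 6 B2 libraries (median 47.2) and 7.49 to 40.2 in the 6 MemB libraries (median 24.7), and a log2 fold change of -0.88 (95% interval -1.82 to 0.07, unadjusted p of 0.0674 and adjusted p = 0.428 by edgeR). Fos had 7.88 to 51.9 CPM in B2 (median 11.6) and 8.89 to 57.8 CPM in MemB (median 28.4), a log2 fold change of 0.76 (95% interval -0.21 to 1.72) that was 0.43 without KI MemB replicate 2. For Myc the difference was -0.07, with an interval of -0.49 to 0.34, so a difference of a whole log2 unit was outside its interval.

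Libraries of 1 group differed from each other in most members, about as they did in other genes, the median within-group SD of log2 CPM being 1.08 over the members and 1.12 over all genes tested. Each library's deviation from its group mean on the log2 CPM scale was averaged over the 10 members. KI B2 replicate 2 was the highest at 0.94 and had the top value of its group for 7 members, whereas KI B2 replicate 3 was the lowest at -0.97. Control MemB replicates 1 and 2 were at 0.86 and -0.89, and KI MemB replicates 2 and 1 at 0.73 and -0.51. Control B2 was the most even group, between -0.18 and 0.24. No replicate number was high throughout, since replicate 3 was the lowest of its group for Fos, Jun and Junb in 3 of the 4 groups but the highest for Egr1 in 3 of the 4.

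Several pairs of members varied together across libraries within groups, as described by Pearson's r of these deviations over the 12 libraries, which share the depth and preparation of each library. Fos and Fosb, which are of the same AP-1 family and do not pair with each other, had the largest r, 0.826. The 4 pairs of a Fos and a Jun family member, which do form AP-1, had 0.277 (Fosb and Junb) to 0.502 (Fos and Jun). Jun and Junb had 0.695, Fosb and Egr3 0.684, Egr1 and Egr3 0.666 and Egr1 and Egr2 0.658. Across the 45 pairs, which share genes and libraries and were not set beside pairs of other genes, 28 were positive. Deviations of the abundant members are not drawn from low counts, but those of Fosb and Egr2 are, in 4 and 5 of the libraries.

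Myc varied in the opposite direction to most other members. Its deviations had r of -0.80 with Nr4a1, -0.772 with Fos, -0.70 with Egr3, -0.676 with Egr2, -0.659 with Fosb and -0.551 with Egr1, and were near 0 with Junb, at 0.0359. Against the mean deviation of the other 9, in which Fosb, Egr2 and Nr4a1 weigh most because they vary most, r was -0.94 and Spearman's rho -0.958 over the 12 libraries, and r was -0.905 without KI B2 replicates 2 and 3, the libraries farthest out. In all 4 groups the library lowest in the other 9 was the highest in Myc, and in 3 of the 4 the library highest in the other 9 was the lowest in Myc, control B2 being the exception. The sizes were unequal, with Myc moving between -0.51 and 0.53 and the mean of the other 9 between -1.14 and 1.10. Among the 7890 genes with a mean above 10 CPM, Myc had the most negative r with the mean of those 9. This is a description of 12 libraries chosen after the values were seen, with no test.

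**Figure D3:**
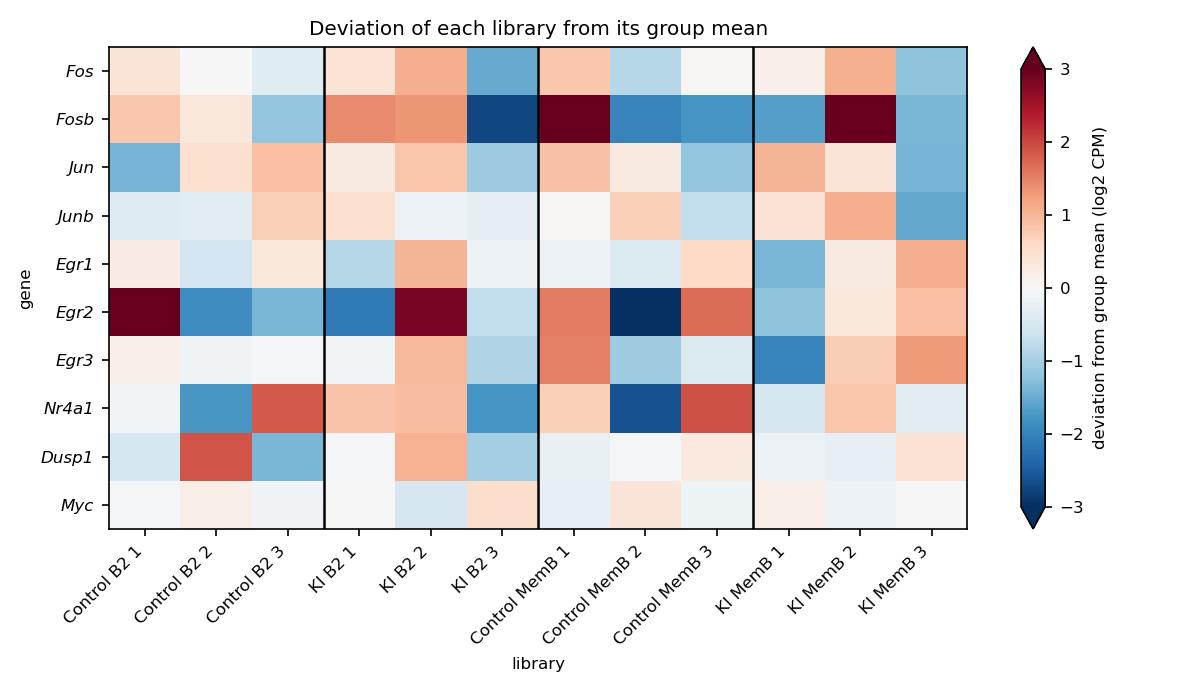
Deviation of each library (columns, 3 for each of the 4 groups) from its group mean, in log2 CPM, for the 10 genes (rows), with red above and blue below the mean and colors saturating at 3. KI B2 replicate 2 is red in 8 of the 10 rows and KI B2 replicate 3 in 1, that of Myc.

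**Figure D4:**
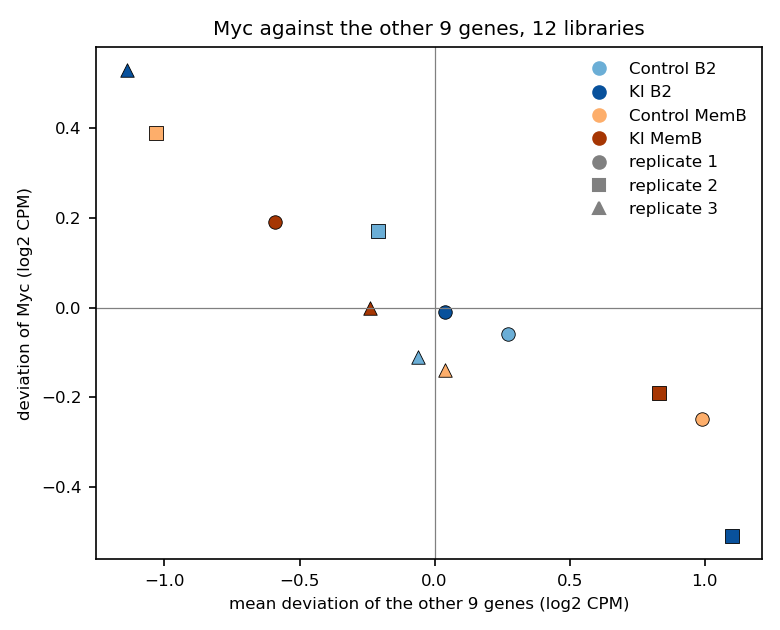
Deviation of Myc from its group mean (y axis, log2 CPM) against the mean deviation of the other 9 genes (x axis, log2 CPM), with 1 point for each of the 12 libraries, colored by group and shaped by replicate number. The points fall from upper left, KI B2 replicate 3 at -1.14 and 0.53, to lower right, KI B2 replicate 2 at 1.10 and -0.51.

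The genes most like the members, by the r of their within-group deviations with the mean of all 10 among 7883 other genes above 10 CPM, were Ndufaf5 (0.963), Polr2m (0.938), Taf1c (0.907), Rbpms (0.877), Ndst1 (0.873), Gm43331 (0.873), Sharpin (0.868) and Braf (0.868). The middle 90% of all those genes lay between -0.584 and 0.563. The members, each of which is part of that mean, ranged from -0.935 (Myc) and 0.067 (Junb) to 0.863 (Fos) and 0.865 (Fosb). Against the mean of the other 9, Fos had 0.821, Fosb 0.726, Egr3 0.68 and Nr4a1 0.509. Egr2 had 0.403, Egr1 0.319, Jun 0.145, Dusp1 0.0777, Junb -0.0506 and Myc -0.94. Of other known immediate early genes, the 26 above 10 CPM had a median r of 0.0174 with the 9 members other than Myc, beside -0.011 for all 7890 genes, and ranged from -0.758 for Klf2 to 0.547 for Nfkbia. The middle 90% of all 7890 lay between -0.581 and 0.561, so Klf2 was outside it on the negative side.

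The wider immediate early response was read from 37 further genes, among them Fosl2, Jund, Atf3, Ier2, Klf2, Zfp36, Btg2 and Cd69, of which 31 were tested. EdgeR called 0 of the 31 in each of the 4 comparisons, although Cd69 and Klf2 passed its adjusted p between MemB and B2 and missed the fold change. Klf2, a transcription factor of resting lymphocytes, had 111 to 184 CPM in the 6 B2 libraries and 199 to 299 in the 6 MemB libraries, a log2 fold change of 0.74 (SE 0.18, adjusted p = 0.0293 by edgeR). At an unadjusted p below 0.05 there were 2 in MemB, 0 in B2, 1 for the interaction and 7 between MemB and B2, where 11.1%, 5.74%, 8.49% and 12.9% of all genes were, shares that also stand beside the counts of the lists that follow. Their median log2 fold change was 0.17 in MemB and 0.16 in B2, with 18 and 19 of the 31 higher in KI. DESeq2 called Cd69 in MemB and Gadd45a between the cell types. Cd69, Klf2 and Gadd45a were singled out once their values were known.

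Cd69, an early activation antigen that holds lymphocytes in tissue by opposing S1PR1, was the clearest of these genes. It had 55.4, 83.2 and 91.3 CPM in control MemB and 196, 180 and 147 CPM in KI MemB, with no overlap. Markers of B cell state differed in the same comparison. Switched memory markers summed to 2300 to 3200 CPM in control MemB and 3920 to 6490 in KI MemB. Within that sum Igha had 352 to 1080 CPM in control MemB and 2350 to 4740 in KI MemB. The fitted level was lower in KI for 5 of the 8 markers and higher for 3, with a median log2 fold change of -0.54. EdgeR called Ighm (log2 fold change -2.46) and Ighd (-1.35), markers of naive B2 cells, lower in KI MemB, and 1 of the 8 switched memory markers, Igha (2.47), higher. Of 6 plasma cell markers it called Jchain (3.80), and the part of these differences in the values of Cd69 and of the members was not tested. The log2 fold change of Cd69 was 1.18 (SE 0.28, unadjusted p of 0.000186 and adjusted p = 0.0541 by edgeR, 0.0131 by DESeq2), and edgeR's adjusted p ranged from 0.0405 to 0.271 with each library left out in turn. Without the filter on low counts edgeR called it (log2 fold change 1.19, adjusted p = 0.0152). In B2 it had 202, 235 and 226 CPM in control and 244, 319 and 143 CPM in KI, and the difference of the KI effects was 1.09 (adjusted p = 0.403 by edgeR). KI MemB thus lay within 147 to 196 CPM, near the lower end of the B2 libraries, and control MemB below all of them. Between MemB and B2 its log2 fold change was -0.98 (SE 0.20, adjusted p = 0.00464 by edgeR), and with each library left out in turn it was -1.11 to -0.84, at an adjusted p of 0.0011 to 0.0426, so that the fold change passed 1 in some of those fits. Gadd45a, a stress-induced growth arrest gene, had 0.12 to 1.26 CPM in MemB and 0.671 to 18.8 CPM in B2, where KI replicates 1 and 2, at 18.8 and 11.8, stood apart from the other 4 libraries.

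Genes of the ERK pathway itself, from the RAS genes to the RSK kinases and the ELK factors, did not pass the test. All 19 on the list were tested, 0 were called by edgeR or DESeq2 in any of the 4 comparisons, and at an unadjusted p below 0.05 there were 1 in MemB, 0 in B2, 1 for the interaction and 0 between the cell types. Their median log2 fold change was -0.08 in MemB and -0.25 in B2, and their summed level was 1670 to 2130 CPM over all libraries. Of 12 genes that restrain RAS and ERK, such as the Spry, Spred and other Dusp genes, 11 were tested and edgeR called 0 in each comparison, with 1, 1, 2 and 3 at an unadjusted p below 0.05 in the same order and a median log2 fold change of -0.02 in MemB and -0.60 in B2. DESeq2 called 1 of them, Spred2, for the interaction, a gene with 2.39 to 15.4 CPM in control B2, 0.128 to 1.71 in KI B2, 0.0899 to 0.176 in control MemB and 0.0919 to 3.16 in KI MemB, where replicate 3 alone had 3.16.

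Genes of the MYC network, namely partners and rivals of MYC on MAX and well-known targets in ribosome assembly and metabolism, were tested in full (18 of 18), and edgeR called 1 of them, Mxd4, in MemB and 0 in the other comparisons. At an unadjusted p below 0.05 there were 1 in MemB, 1 in B2, 1 for the interaction and 2 between the cell types. The median log2 fold change was -0.21 in MemB, where 13 of the 18 had a lower mean in KI, and 0.00 in B2, where 9 did, and the summed level was 1970 to 2190 CPM in control MemB and 1780 to 1890 CPM in KI MemB. DESeq2 called Mxd4 in MemB and for the interaction. Mxd4 encodes an antagonist of MYC that takes its place on MAX. It had 103, 115 and 105 CPM in control MemB and 22.2, 39.2 and 18.7 CPM in KI MemB, a fall of 4.05-fold without overlap (log2 fold change -2.02, SE 0.39, adjusted p = 0.00899 by edgeR's quasi-likelihood test). In B2 it had 62.2, 71.1 and 50.6 CPM in control and 77.5, 68.7 and 66.0 CPM in KI, and the difference of the KI effects of -2.22 had an adjusted p of 0.148 by edgeR. The call in MemB was lost without control MemB replicate 2, KI MemB replicate 1 or KI MemB replicate 3, with edgeR's adjusted p ranging from 0.00804 to 0.0881 over the 12 libraries left out in turn. Over the same fits its log2 fold change in MemB stayed between -2.402 and -1.815.

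Heat shock genes, which handling of cells can induce along with immediate early genes, were read beside the members. All 12 were tested and edgeR and DESeq2 called 0 in each comparison, with 0 at an unadjusted p below 0.05 as well, and with a median log2 fold change of 0.36 in MemB and 0.38 in B2. The fitted level was higher in KI for 10 of the 12 in MemB and 11 of the 12 in B2, and higher in MemB than in B2 for all 12. Their sum was 3040, 5720 and 3110 CPM in control B2, 5340, 6720 and 3070 in KI B2, 4000, 6180 and 3390 in control MemB and 6270, 7430 and 3390 in KI MemB. Replicate 2 was the highest of each group, and KI B2 replicate 2 and KI MemB replicate 2, both high in the members, had the largest sums. Control MemB replicate 2, however, had a large sum and was the lowest of its group for 6 of the 10 members. Over the 12 libraries r between the deviations of Hspa1a and the mean of the 9 members other than Myc was 0.433, and the part of these genes' differences in the members' levels was not tested.

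**Figure D5:**
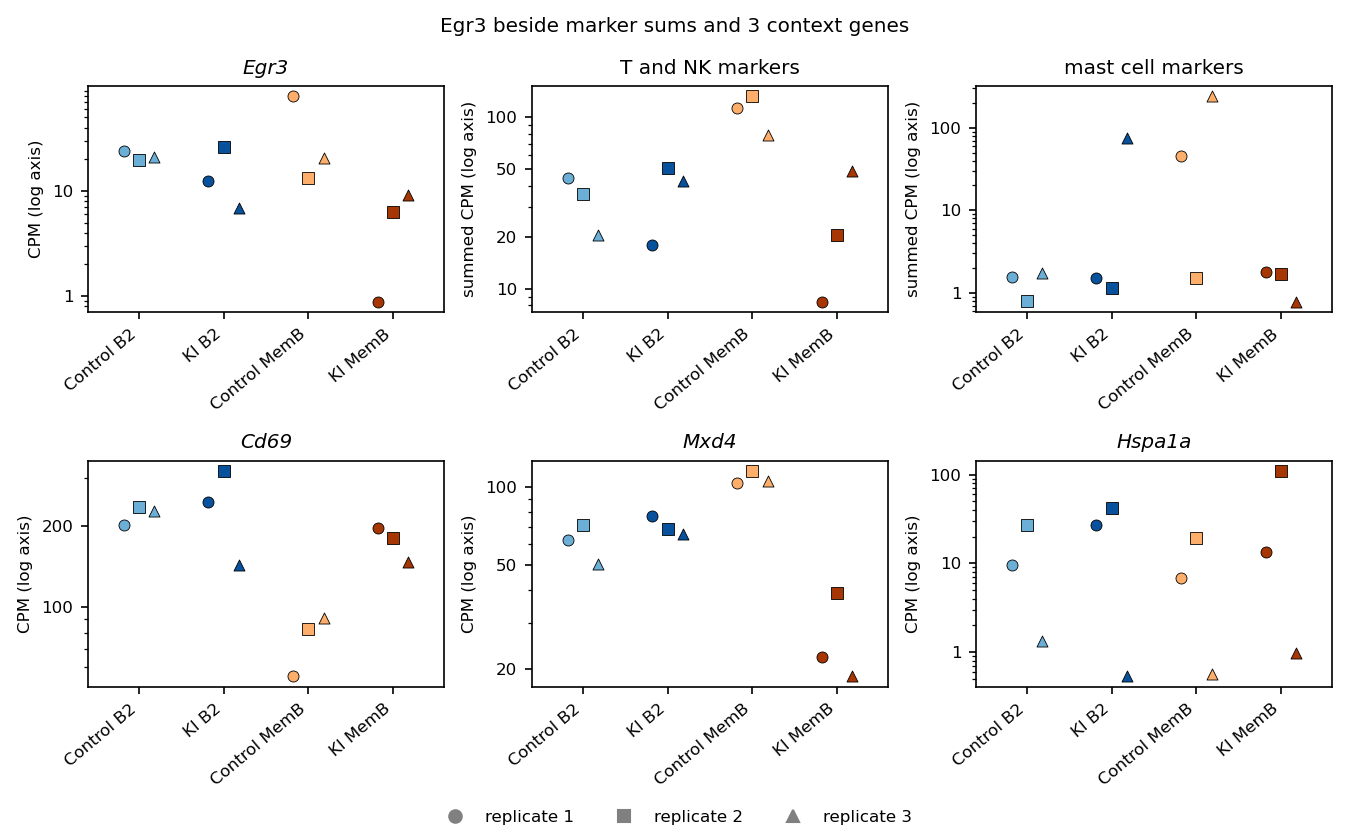
Egr3, Cd69, Mxd4 and Hspa1a in CPM and the sums of T and NK cell and of mast cell markers in summed CPM (y axes, log scale) in the 4 groups (x axes), with 1 point for each library shaped by replicate number. Egr3 and the T and NK sum are both lower in all KI MemB than in all control MemB libraries, Cd69 is higher there and Mxd4 lower, and Hspa1a is at most 1.35 in replicate 3 of each group.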

How the data were processed

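The authors trimmed reads with cutadapt 4.5, checked them with FastQC 0.12.1, aligned them to mm39 with STAR 2.7.11a and deposited the expected counts per gene estimated by RSEM 1.3.3, not normalized. All columns matched a library by name (0 did not). RSEM shares reads between similar genes, 32.2% of non-zero values were not whole, and counts were rounded.

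EdgeR 4.0.16 in R 4.3.3 was run on all 12 libraries in 1 model of 4 group means, using TMM factors and robust quasi-likelihood dispersions. Genes had to pass filterByExpr (its count minimum set to 10), which left 15148, and p-values were adjusted over these by Benjamini-Hochberg. A call needed an adjusted p under 0.05 and a log2 fold change over 1 or under -1. SEs are the log2 fold change over the square root of F. CPM are TMM-normalized, and log2 CPM used a prior count of 2. Alternatives were DESeq2 1.42.0, its size factors, no filter, ribosomal RNA genes left out, a non-robust fit, replicate and mouse blocks, and libraries left out.

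The 10 members and the lists beside them were chosen with earlier results of these data known, so they are not independent support for any pattern. All members are described, and of the lists only called genes are named, except where stated. Labels call the libraries biological replicates. Without molecular identifiers, depth covers counting error only. The fits were tested on simulated data.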

Additional observations from a re-analysis of the deposited data

How the results depend on the processing

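The number of members called was 0 in each of the 4 comparisons with edgeR under every alternative run, with 1 exception by tool, DESeq2's call of Egr3 in MemB (1 member). Of 780 recomputed log2 fold changes of the members, 726 kept their direction and their side of the thresholds, 1 became a call and 53 changed sign, most of them of values near 0. Among values given above, leaving out single libraries turned the sign of Fosb in MemB (-4.03 to 3.85), Egr1 in MemB (-0.94 to 0.12), Myc in MemB (-0.27 to 0.075), Myc between MemB and B2 (-0.183 to 0.0800) and Egr2 in B2 (-4.40 to 2.54). The lowest adjusted p of Egr3 in MemB by edgeR, 0.0714, was without the filter on low counts, and it was 0.306 in the non-robust fit.

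Libraries were not treated as paired by replicate number, since deviations of same-numbered libraries correlated across genes at -0.0259 to 0.0344. A correlation over all genes cannot show whether some genes follow replicate number. Replicate 3 differed in sex and was the lowest in Hspa1a in every group, and replicate 2 was the highest. With the replicate block, Egr3 in MemB had a log2 fold change of -2.69 (adjusted p = 0.378 by edgeR) and genes called went from 43 to 37 in MemB, with 0 members called. With genotype and replicate number together as a block, as if B2 and MemB of 1 number came from the same mouse, which the labels do not say, the interaction of Egr3 was -2.19. Without replicate 3 of all groups, the one of the other sex, Egr3 in MemB was -3.69 (adjusted p = 0.245 by edgeR). In that fit Myc between MemB and B2 was 0.105, and the call of Mxd4 in MemB was lost. Counting precision limits Fosb and Egr2 most, which had fewer than 10 counts in 4 and 5 libraries.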
